A study of Mus musculus with 26 samples.

Results

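Lacrimal glands of mice aged 20 weeks were compared with glands of mice aged 16 weeks, on 5 arrays at 20 weeks and 5 at 16 weeks. These 10 arrays were taken by the age in their titles from 26 arrays that run from 4 to 20 weeks. All mice were male and of the strain C57BL/6.NOD-Aec1Aec2, in which 2 stretches of the NOD genome, Idd3 (Aec1) on chromosome 3 and Idd5 (Aec2) on chromosome 1, were bred into C57BL/6. The strain is a model of primary Sjögren's syndrome (SjS), and mice of every age carry both stretches and had no treatment named in the labels. The study describes 20 weeks as the beginning of SjS-like disease with failing secretion and 16 weeks as the early clinical phase of autoimmunity. Tear flow was not among the data analysed here. No C57BL/6 mice were analysed here, so age and disease cannot be told apart. The titles call the replicates biological, but the sources used here do not say if each was a single animal or several pooled. The p-values therefore cover only the sample-to-sample spread, which may not be that between single animals.

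The lacrimal gland makes the watery layer of the tear film. Nerves that release acetylcholine act on muscarinic receptors of the acinar cells, the G protein Gq and phospholipase C raise cell calcium, chloride leaves through calcium-activated channels, and water follows through aquaporins. Tear proteins take another way: they are folded in the endoplasmic reticulum, pass through the Golgi and leave by regulated exocytosis. In Sjögren's syndrome lymphocytes and other leukocytes gather in tear and salivary glands and secretion is lost.

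Values are log2 expression levels, in which a difference of 1 is a factor of 2, and a level under 4.04 is called near background because it lies within 1 log2 unit of the middle of the arrays. The arrays held lacrimal gland by their products, with means of 10.49 to 13.30 over 12 product genes at 20 weeks and 10.20 to 12.79 at 16 weeks. At each age 1 array stood apart. Values on 20 weeks replicate 1 had a standard deviation of 1.36 and those on 16 weeks replicate 4 had 1.68, while the remaining 8 lay between 1.93 and 2.13. Replicate 1 at 20 weeks correlated at a median of 0.869 with its age group and replicate 4 at 16 weeks at 0.921, whereas the 24 remaining arrays of the series reached 0.956 to 0.986. A low spread means that bright and dim genes lie closer together, and called genes, counts and list medians are therefore given with and without these 2 arrays, as are other named genes whose difference moved by over 1.5 times. Fat was a further difference between arrays. The mean of 6 adipose tissue genes was 3.92 to 4.98 at 20 weeks, and at 16 weeks it was 7.59 and 8.02 on replicates 1 and 2 and 4.04 to 4.52 on the other 3. The mean of 9 salivary gland genes was 5.08 to 8.73 at 20 weeks and 5.55 to 8.49 at 16 weeks. For 3 Harderian and sebaceous gland genes it was 4.91 to 7.59 and 5.23 to 8.07. Whether tissue of neighbouring glands was carried over was not tested.

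Few genes separated glands at 20 weeks from glands at 16 weeks. Of 12377 genes tested with limma on all arrays, Rnf216 was higher at 20 weeks (1 gene, 0.00808% of those tested) and Thap1 was lower (1 gene, 0.00808%), at a Benjamini-Hochberg adjusted p under 0.05. Without the 2 arrays that stood apart 7 genes were higher (0.0566%) and 3 were lower (0.0242%), and both genes of the full comparison were among these 10. No gene for a muscarinic receptor, an aquaporin, a chloride channel or a tear protein passed in either fit. Before adjustment 1008 genes had a p under 0.05 on all arrays, 306 higher and 702 lower, and 835 without the 2 arrays, 281 higher and 554 lower. Groups that do not overlap were also counted. In 41 genes (0.331%) the lowest array at 20 weeks exceeded the highest at 16 weeks, and in 116 (0.937%) the reverse held. After leaving out the 2 arrays the counts were 179 higher (1.45%) and 441 lower (3.56%). The median difference over all genes was 0.01 on all arrays and -0.01 without the 2.

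Rnf216, which encodes a RING-type E3 ubiquitin ligase, was the gene called higher at 20 weeks on all arrays. Its level was 3.91, 6.07, 6.13, 5.96 and 5.94 on replicates 1 to 5 at 20 weeks and 3.92, 3.85, 4.39, 3.82 and 3.86 at 16 weeks. The 4 arrays of ordinary spread at 20 weeks were high, and replicate 1 lay among the arrays at 16 weeks, so the groups overlapped through that array alone. The difference, 20 minus 16 weeks, was 1.63 ± 0.27 (SE; limma adjusted p = 0.0267), and 2.02 ± 0.12 without the 2 arrays (adjusted p = 1.05e-09). Its means by age, in order of 4, 8, 12, 16 and 20 weeks, were 4.02, 3.89, 3.82, 3.97 and 5.60. Because the level was near background at 16 weeks, the difference may be understated, which was not tested. A single probe set stood for the gene, so no other probe set could be compared with it. In bulk tissue a change in the number of cells of a type and a change in RNA per cell cannot be told apart.

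Thap1, a DNA-binding transcription factor with a THAP zinc finger, was lower at 20 weeks. It measured 4.90, 4.78, 4.90, 4.73 and 4.71 at 20 weeks and 5.12, 5.33, 5.58, 5.19 and 5.63 at 16 weeks. Every array at 20 weeks lay below every array at 16 weeks. The difference was -0.57 ± 0.09 (limma adjusted p = 0.0185), and -0.64 ± 0.09 without the 2 arrays (adjusted p = 0.00438). By age the mean was 4.78, 4.81, 4.80, 5.37 and 4.80 at 4, 8, 12, 16 and 20 weeks, so the mean at 16 weeks was the one that stood off. The other probe set of Thap1 did not show the gap, with means of 4.75 at 20 weeks and 4.74 at 16 weeks.

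Both calls depended on the setting. Rnf216 passed in 11 and Thap1 in 13 of 25 alternative fits, with adjusted p of 1.16e-10 to 0.762 for Rnf216 and 0.000351 to 0.762 for Thap1. Neither difference changed sign in any of them, with 1.50 to 2.06 for Rnf216 and -0.64 to -0.28 for Thap1.

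**Figure D1:**
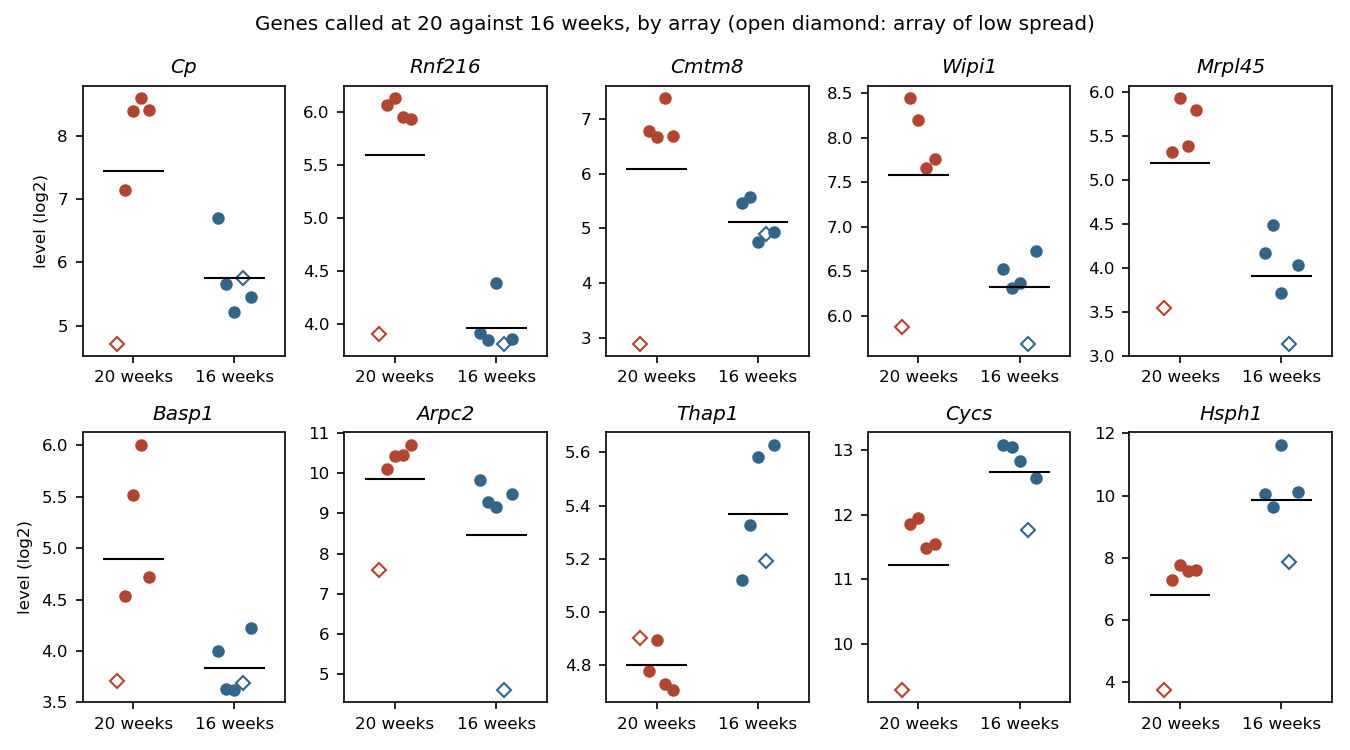
Log2 level of the 10 genes called in either fit, on each of the 5 arrays at 20 weeks (red, left) and the 5 at 16 weeks (blue, right); bars are means over the 5 arrays and open diamonds are 20 weeks replicate 1 and 16 weeks replicate 4. Rnf216 is at 5.94 to 6.13 on 4 arrays at 20 weeks and at 3.91 on the open one.

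The other 6 genes higher at 20 weeks were called without the 2 arrays and not on all arrays. Cp, ceruloplasmin, the copper-carrying ferroxidase of plasma, measured 4.72, 7.14, 8.38, 8.59 and 8.40 at 20 weeks and 6.70, 5.66, 5.21, 5.75 and 5.46 at 16 weeks. Replicate 1 was the lowest of the 10 arrays, and the other 4 at 20 weeks were above every array at 16 weeks. The difference was 2.37 ± 0.37 without the 2 arrays (limma adjusted p = 0.00696) and 1.69 ± 0.52 with them (adjusted p = 0.452). Of its 8 probe sets, the 4 brightest at 20 weeks differed by 1.71 to 2.37 without the 2 arrays.

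Wipi1, a phosphoinositide-binding protein of the early autophagosome, measured 5.87, 8.44, 8.20, 7.66 and 7.76 at 20 weeks and 6.53, 6.31, 6.36, 5.69 and 6.72 at 16 weeks. Here too replicate 1 alone overlapped the arrays at 16 weeks. The difference was 1.53 ± 0.23 without the 2 arrays (limma adjusted p = 0.00438) and 1.26 ± 0.34 with them (adjusted p = 0.364). Its 5 other probe sets gave differences of -0.12 to 0.79 without the 2 arrays, so they did not show a gap of this size. Cmtm8, a MARVEL-domain membrane protein, measured 2.89, 6.78, 6.67, 7.38 and 6.69 at 20 weeks and 5.47, 5.57, 4.75, 4.90 and 4.94 at 16 weeks. Its mean was 6.48 at 8 weeks and 6.28 at 12 weeks, and all arrays at 16 weeks were under both. The difference was 1.70 ± 0.29 without the 2 arrays (adjusted p = 0.0125) and 0.96 ± 0.54 with them (adjusted p = 0.626).

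Mrpl45, a protein of the large mitochondrial ribosomal subunit, measured 3.54, 5.32, 5.93, 5.38 and 5.79 at 20 weeks and 4.16, 4.49, 3.71, 3.14 and 4.03 at 16 weeks. Basp1, a membrane-attached signalling protein, measured 3.71, 4.54, 5.51, 6.01 and 4.72 at 20 weeks and 4.00, 3.63, 3.62, 3.69 and 4.22 at 16 weeks. Both were near background at 16 weeks, and in both only replicate 1 at 20 weeks reached down to the arrays at 16 weeks. The differences without the 2 arrays were 1.50 ± 0.27 for Mrpl45 (limma adjusted p = 0.0234) and 1.33 ± 0.23 for Basp1 (adjusted p = 0.0183), and with them 1.28 (adjusted p = 0.413) and 1.07 (adjusted p = 0.308). Arpc2, a subunit of the actin-branching Arp2/3 complex, measured 7.59, 10.12, 10.42, 10.45 and 10.71 at 20 weeks and 9.83, 9.27, 9.16, 4.59 and 9.48 at 16 weeks. The lowest array of each age was the one of low spread. The difference was 0.99 ± 0.16 without the 2 arrays (adjusted p = 0.0101) and 1.39 ± 0.68 with them (adjusted p = 0.606). Over their 25 alternative fits these 6 genes stayed positive, with adjusted p that reached 0.762 to 0.908 at the highest. The number passed was 3 for Cp, 5 for Wipi1, 3 for Cmtm8, 4 for Mrpl45, 3 for Basp1 and 1 for Arpc2. Those fits include the one without the 2 arrays, by which the 6 genes were called, and Arpc2 passed in no other. Basp1 and Arpc2 lie outside the rule for naming genes and were named to complete the count.

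Cycs and Hsph1 were the other genes lower at 20 weeks without the 2 arrays. Cycs, cytochrome c, which carries electrons in the respiratory chain and triggers apoptosis once released, measured 9.28, 11.85, 11.94, 11.49 and 11.55 at 20 weeks and 13.08, 13.04, 12.84, 11.76 and 12.58 at 16 weeks. Only 16 weeks replicate 4 fell among the arrays at 20 weeks. The difference was -1.17 ± 0.19 without the 2 arrays (limma adjusted p = 0.0074) and -1.43 ± 0.36 with them (adjusted p = 0.302). Of its 3 further probe sets, 2 differed by -1.45 and -1.42 without the 2 arrays, and the dimmest, near background, by -0.04. It passed in 4 of 25 alternative fits (adjusted p 0.00195 to 0.768), among them the fit without the 2 arrays, by which it was called.

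Hsph1, a large chaperone that resets Hsp70 proteins, had the widest gap of all called genes. It measured 3.75, 7.30, 7.78, 7.59 and 7.62 at 20 weeks and 10.07, 9.63, 11.63, 7.88 and 10.11 at 16 weeks. Every array at 20 weeks lay below every array at 16 weeks. The difference was -2.79 ± 0.37 without the 2 arrays (limma adjusted p = 0.00158) and -3.05 ± 0.63 with them (adjusted p = 0.147). Across its 25 alternative fits the difference ran between -3.55 and -1.98 and passed in 5 (adjusted p 0.000176 to 0.762). These 5 include the fit without the 2 arrays, by which Hsph1 was called. Its dimmer probe set differed by -1.16 without the 2 arrays and by -0.91 with them. The means at 4, 8, 12, 16 and 20 weeks were 7.38, 8.95, 8.18, 9.86 and 6.81. Without the 2 arrays they were 10.36 at 16 weeks and 7.57 at 20 weeks.

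**Figure D2:**
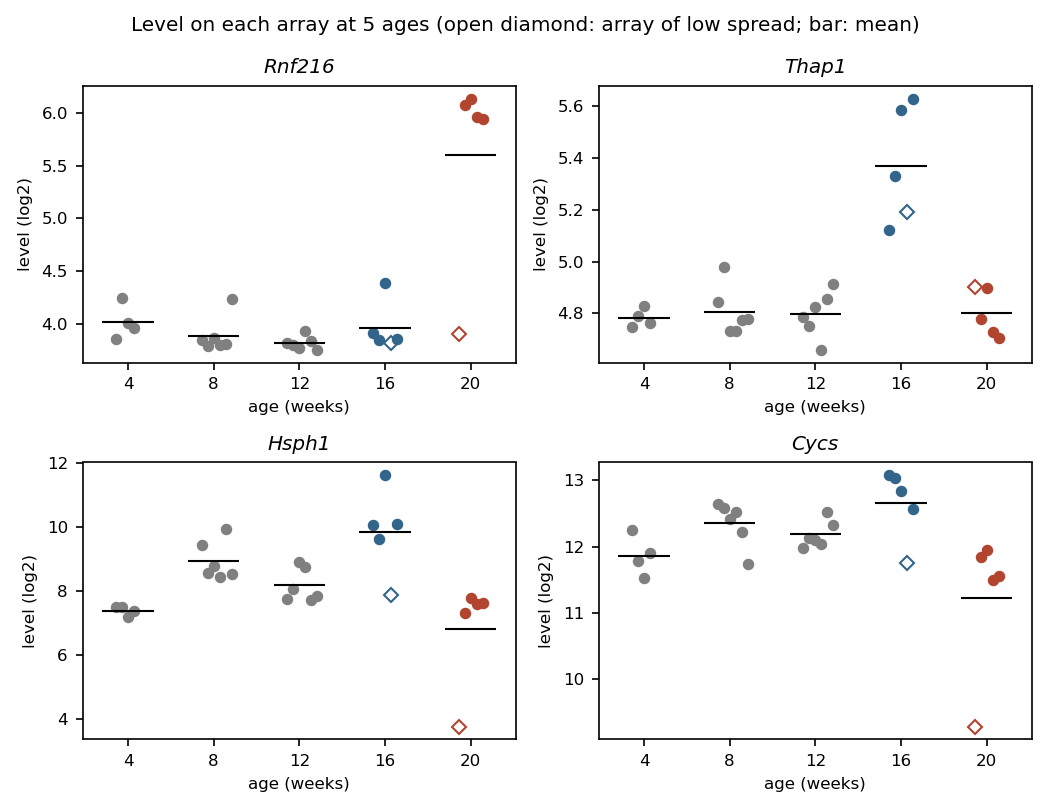
Log2 level of Rnf216, Thap1, Hsph1 and Cycs on each of the 26 arrays by age in weeks (grey at 4, 8 and 12 weeks, blue at 16, red at 20); bars are means and open diamonds the 2 arrays of low spread. Rnf216 is between 3.76 and 4.39 at every age before 20 weeks, and Thap1 stands off only at 16 weeks.

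Whether a gene's step between 16 and 20 weeks differed from its step between 8 and 12 weeks, with which it shares no array, was tested in the same fit. No gene passed on all arrays (0%), with 741 at an unadjusted p under 0.05. Without the 2 arrays Rnf216 alone passed (1 gene, 0.00808%), with a difference between the steps of 2.09 ± 0.15 (limma adjusted p = 7.45e-08), against an adjusted p of 0.256 on all arrays.

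Genes next in rank did not pass on all arrays. They were taken in order of p among those whose groups did not overlap. Upward these were Lrig3, a leucine-rich repeat membrane protein (1.20 ± 0.27, limma adjusted p = 0.197), the beta tubulin Tubb6 (0.76 ± 0.18, adjusted p = 0.237), the Mediator subunit Med16 (0.59 ± 0.14, adjusted p = 0.237), Nacad (0.89, adjusted p = 0.394), Tigd3 (0.38), 4930573C08Rik (0.29), the chemerin gene Rarres2 (0.24), Yeats2 (0.40) and Dnph1 (0.32). Lrig3 was at 4.75 to 6.57 at 20 weeks and 4.25 to 4.66 at 16 weeks, and its means of 5.84, 5.26 and 4.81 at 4, 8 and 12 weeks show that it had been as high before. Med16, Tigd3, 4930573C08Rik and Yeats2 were near background at both ages.

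Downward the closest was Npat, a coactivator of histone genes, at 4.05 to 4.61 at 20 weeks and 4.99 to 5.24 at 16 weeks (-0.75 ± 0.13, limma adjusted p = 0.0513). Then came 1500002F19Rik (-2.33 ± 0.46, adjusted p = 0.116), Eef1e1, a scaffold of the tRNA synthetase complex (-1.90 ± 0.38, adjusted p = 0.116), and Azin1, the antizyme inhibitor of polyamine control (-2.45 ± 0.52, adjusted p = 0.163). Eef1e1 was at 3.94 to 4.67 at 20 weeks and 5.69 to 6.62 at 16 weeks, and Azin1 at 4.99 to 8.09 and 8.92 to 10.38. The last of them were Thumpd3 (-1.43), Ahsa2, a relative of the Hsp90 activator Ahsa1 (-2.07), the nuclear pore gene Nup160 (-0.98) and Lysmd3 (-1.66), at adjusted p of 0.197 to 0.237. In the smaller fit Papolg, a poly(A) polymerase (-0.68 ± 0.13), and Nrg4, a ligand of the receptor ErbB4 (-1.85 ± 0.36), fell just short (limma adjusted p = 0.05 each, unrounded above the threshold).

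Heat shock chaperones refold proteins, and their genes are switched on together by heat shock factors. All 14 kept genes of the 16 on the list had a negative difference, with a median of -0.66 on all arrays and -1.16 without the 2, against 0.01 and -0.01 over all genes. None passed on all arrays and Hsph1 alone passed without the 2. The groups did not overlap for 2 of them on all arrays, Hsph1 and Dnaja1, and for 8 without the 2 arrays, where 0.937% and 3.56% of all genes were lower with no overlap. Dnaja1, an Hsp40 partner of Hsp70, measured 5.95, 8.42, 8.75, 8.66 and 9.17 at 20 weeks and 9.93, 9.91, 10.33, 9.27 and 9.75 at 16 weeks. Its difference was -1.65 ± 0.42 (limma adjusted p = 0.324), and -1.23 ± 0.28 without the 2 arrays (adjusted p = 0.113), and it passed in 3 of 25 alternative fits (adjusted p 0.00195 to 0.762). The stress-inducible Hsp70 genes Hspa1a and Hspa1b differed by -1.58 and -1.20 without the 2 arrays, the cytosolic Hsp90 gene Hsp90aa1 by -1.47 (adjusted p = 0.0977), the constitutive Hsp70 gene Hspa8 by -1.18, and the mitochondrial chaperonin pair Hspd1 and Hspe1 by -1.25 and -1.13. On all arrays Hspa8 differed by -0.61 and Hspe1 by -0.60. Hspa4l, an Hsp110 relative, differed by -0.70 ± 0.20 on all arrays (adjusted p = 0.413), with 3.33 to 3.54 at 20 weeks and 3.43 to 5.27 at 16 weeks, which overlap.

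Per array, the mean of the 14 genes was 5.36, 7.27, 7.70, 7.73 and 7.87 at 20 weeks and 8.57, 8.44, 9.14, 6.56 and 8.35 at 16 weeks. The ages did not overlap once the 2 arrays were left out, and both low values belonged to the arrays of low spread. By age, in order of 4, 8, 12, 16 and 20 weeks, the mean was 7.20, 7.96, 7.66, 8.21 and 7.19, with the arrays of low spread included. Apart from replicate 1, the arrays at 20 weeks lay at 7.27 to 7.87, beside 7.41 to 8.50 at 8 weeks and 7.20 to 8.07 at 12 weeks. The highest array at 8 weeks thus lay within the range at 16 weeks. The median was negative in all 25 alternative fits, at -1.72 to -0.40, and it was -0.63 with the adipose tissue mean in the fit and -0.95 with the 3' minus 5' actin signal, a measure of RNA integrity, in it. That actin signal was 2.73 to 4.97 at 20 weeks and 3.12 to 5.71 at 16 weeks. The highest value of each age was on its array of low spread. The mean actin signal was 3.89 at 20 weeks and 4.56 at 16 weeks, whereas the same measure for Gapdh was 2.54 and 2.03. The heat shock list was picked for description after its values were seen.

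**Figure D3:**
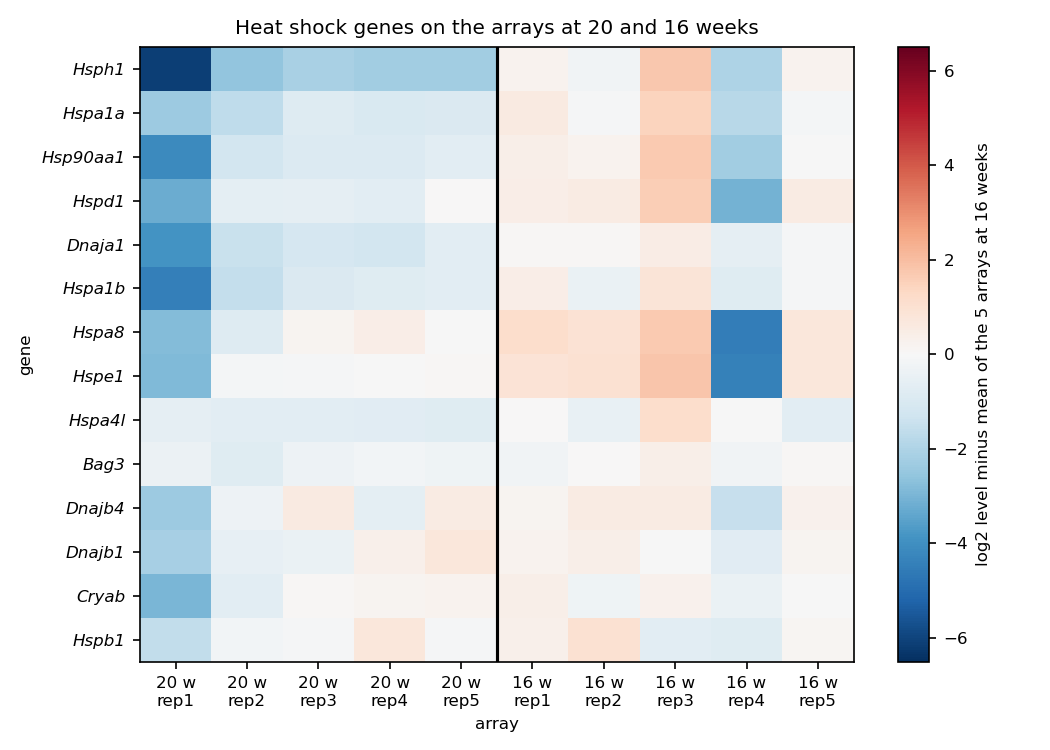
Log2 level of 14 heat shock genes (rows) on the arrays at 20 weeks (left of the line) and 16 weeks (right), minus the gene's mean over the 5 arrays at 16 weeks; blue is lower and red higher. Columns 20 w rep1 and 16 w rep4 are the arrays of low spread, and 16 w rep3 has the highest list mean, 9.14.

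Heat shock factor binds inverted repeats of GAA, and the start regions of these genes were searched for them because the list stood together. The stretches below, from RefSeq promoters on GRCm38.p6, show what the sites look like in the called gene Hsph1 (chr5:149636286-149636385, minus strand), in Hspe1 (chr1:55088038-55088097, plus strand) and in Hspa1b (chr17:34959304-34959363, minus strand). Each is written 5′ to 3′, and capitals mark matches to GAANNTTC or TTCNNGAA, which run into each other where 3 units follow.
Hsph1: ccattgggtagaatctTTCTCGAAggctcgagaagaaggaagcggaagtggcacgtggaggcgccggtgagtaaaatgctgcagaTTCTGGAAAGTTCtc
Hspe1: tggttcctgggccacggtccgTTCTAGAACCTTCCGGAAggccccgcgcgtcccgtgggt
Hspa1b: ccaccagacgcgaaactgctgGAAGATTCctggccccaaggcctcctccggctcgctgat
Of 32851 promoters of 300 bases, 0.603% held 3 units in a row (GAANNTTCNNGAA or its reverse complement) and 15.1% held 2 units (GAANNTTC or TTCNNGAA). Counted by gene, these were 0.662% and 17.0% of 27025 genes. Of the 11 kept heat shock genes with a promoter listed, 3 held the longer motif (Hsph1, Hspd1 and Hspe1, the last of which share 285 bases of promoter) and 9 held the shorter. Of the 10 called genes, 9 had a promoter listed, and Hsph1 and Arpc2 held both motifs, although Arpc2 was higher at 20 weeks. A match is a description of the letters and was not tested as a site. The 3 genes were chosen for printing after their values were seen. Hsph1 has 2 promoters listed, and the one printed was ranked first by its number of matches to the longer motif. In it, that match lies downstream of the start site.

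Genes of fluid secretion did not pass on all arrays or without the 2. Array weights, the setting with the most calls, called Chrm1, Gnaq and Ano1 higher and Orai1 lower. Of all 12377 genes that setting called 92 higher and 157 lower. Of 20 kept genes for secretory receptors and calcium signalling, none passed, and the median difference was 0.11 on all arrays and 0.05 without the 2. Chrm3, the main muscarinic receptor of the gland, and Vipr2, a receptor for vasoactive intestinal peptide, were below the filter on dim genes, with means of 2.62 and 3.06 at 20 weeks and 2.59 and 3.01 at 16 weeks. Chrm1, another muscarinic receptor, measured 4.53, 6.38, 5.08, 4.41 and 5.64 at 20 weeks and 4.96, 4.61, 4.72, 4.49 and 4.38 at 16 weeks, which overlap (0.58 ± 0.26, limma adjusted p = 0.586). Gnaq, the Gq subunit that relays the muscarinic signal, measured 5.57, 9.26, 9.21, 9.43 and 9.60 at 20 weeks and 8.84, 7.35, 6.29, 5.12 and 7.17 at 16 weeks. Its groups did not overlap without the 2 arrays, and the difference was 1.96 ± 0.55 (adjusted p = 0.243), against 1.66 ± 0.71 with them (adjusted p = 0.573, and 0.0249 to 0.908 over the alternatives). Plcb1, a phospholipase C, and Orai1, a calcium entry channel, differed by 0.57 ± 0.21 and -0.23 ± 0.14 on all arrays and by 0.32 and -0.37 without the 2, with Orai1 near background at both ages.

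Of 17 kept water channel and ion transport genes none passed, with a median of 0.07 on all arrays and 0.04 without the 2. Aqp5, the water channel of the acinar surface, measured 8.09, 10.31, 10.46, 10.71 and 11.45 at 20 weeks and 10.63, 11.12, 10.59, 4.90 and 10.87 at 16 weeks. Its lowest values were again on the arrays of low spread. The difference was 0.58 on all arrays (95% interval -1.08 to 2.24) and -0.07 without them (-0.62 to 0.48). Slc12a2, which loads acinar cells with chloride, measured 6.92, 8.79, 9.70, 9.80 and 10.30 at 20 weeks and 9.35, 9.94, 9.68, 9.46 and 9.49 at 16 weeks. Its interval was -1.79 to 0.81 on all arrays and -1.27 to 1.33 without the 2. Ano1, the calcium-activated chloride channel, measured 6.39, 9.33, 9.82, 10.08 and 10.11 at 20 weeks and 8.73, 8.80, 8.40, 7.71 and 8.21 at 16 weeks. Without the 2 arrays all at 20 weeks were higher, by 1.30 ± 0.34 (limma adjusted p = 0.209), against 0.78 ± 0.51 with them (adjusted p = 0.636, and 0.0119 to 0.908 over the alternatives). Aqp4 was near background at both ages (3.46 and 3.38), and Aqp8 and the volume-regulated channel subunit Lrrc8a differed by -0.98 ± 0.63 and -0.67 ± 0.43 on all arrays. For Aqp8 the difference without the 2 arrays was -0.36 ± 0.41, and 20 weeks replicate 1 had the lowest level, 2.67.

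**Figure D4:**
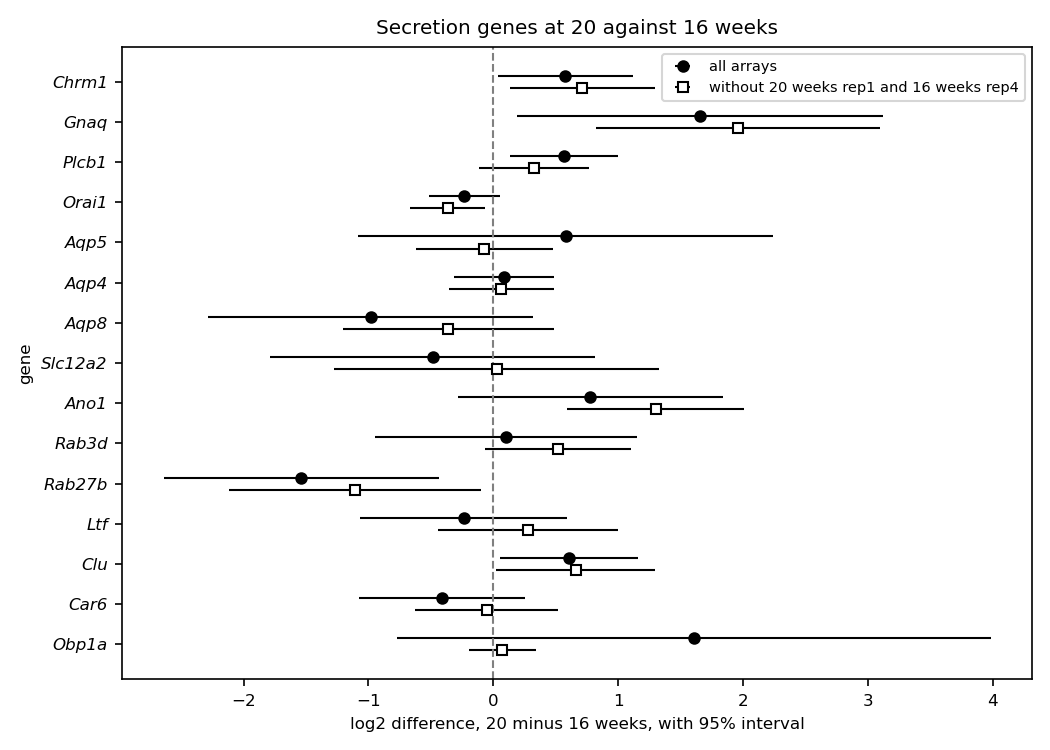
Log2 difference, 20 minus 16 weeks, of 15 secretion genes with 95% intervals of the fit on all arrays (filled circles) and without the 2 arrays of low spread (open squares). Aqp5 spans -1.08 to 2.24 on all arrays and -0.62 to 0.48 without the 2.

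The machinery and products of tear protein secretion gave no call in either fit. Among the alternatives only Exoc4, of the exocytosis list, passed. It was higher with quantile normalization, which called 13 of all genes higher. Of 20 kept exocytosis genes, Rab27b, a Rab of secretory granules, had the smallest p, with 4.38, 7.61, 7.76, 5.48 and 7.47 at 20 weeks and 7.54, 9.03, 8.21, 7.64 and 7.97 at 16 weeks (-1.54 ± 0.53, limma adjusted p = 0.515). Rab3d, the other granule Rab, measured 6.81, 9.80, 10.22, 9.95 and 11.14 at 20 weeks and 10.23, 9.73, 9.45, 8.36 and 9.64 at 16 weeks (0.11 ± 0.51, and 0.52 ± 0.28 without the 2 arrays). Snap29 differed by -0.48 ± 0.27, and by -0.29 without the 2. Among 12 kept product genes the median was -0.18 on all arrays and 0.05 without the 2. Ltf, lactoferrin, averaged 12.87 ± 1.05 at 20 weeks and 13.11 ± 0.26 at 16 weeks (SD, n = 5 each), with an interval of -1.07 to 0.59, and -0.44 to 1.00 without the 2 arrays. Clu, clusterin, differed by 0.61 ± 0.27 (adjusted p = 0.583), and Car6, the secreted carbonic anhydrase, by -0.41 ± 0.32 on all arrays but -0.05 ± 0.28 without the 2. Obp1a, an odorant-binding lipocalin, was at 6.51 on 16 weeks replicate 4 and at 14.24 to 16.26 on the other 9 arrays, and its difference was 1.60 ± 1.15 on all arrays and 0.07 ± 0.13 without the 2. Cst10 varied widely within each age, at 2.09 to 12.66 at 20 weeks and 2.31 to 12.24 at 16 weeks. Its difference was 2.85 ± 2.44 on all arrays and 2.47 ± 2.83 without the 2, and it was not followed over the alternative fits.

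Earlier steps of the protein pathway had mostly negative differences, with no call on all arrays or without the 2. Of 26 genes for endoplasmic reticulum chaperones and the unfolded protein response, 20 had a negative difference, with a median of -0.54 on all arrays and -0.44 without the 2. The Hsp90 of the endoplasmic reticulum, Hsp90b1, measured 8.09, 11.05, 11.02, 10.81 and 11.51 at 20 weeks and 11.58, 12.03, 12.34, 11.57 and 12.26 at 16 weeks, which do not overlap (-1.46 ± 0.43, limma adjusted p = 0.433, and -0.96 ± 0.28 without the 2 arrays). It passed in 3 of 25 alternative fits (adjusted p 0.00827 to 0.908): quantile normalization, the spread covariate and array weights. Dnajb9, a co-chaperone of the unfolded protein response, did not overlap either (-1.33 ± 0.47, adjusted p = 0.516), while Ssr1, of the translocon, and the disulfide isomerase Pdia3 did (-1.10 ± 0.43 and -1.53 ± 0.60). Without the 2 arrays Dnajb9 differed by -0.65 and Ssr1 by -0.64. Of 20 genes for transport to the Golgi, 19 had a negative difference, with a median of -0.83 and -0.47. The coat protein genes Sec13 and Sec24d differed by -0.92 ± 0.30 and -1.06 ± 0.43, the fusion protein Sec22b by -0.74 ± 0.26, and the cargo receptor subunit Mcfd2 by -0.93 ± 0.38, at adjusted p of 0.501 to 0.564, while Mcfd2 differed by -0.42 without the 2 arrays. Array weights called 5 of the 26 chaperone genes and, of the transport genes, Sec22b, all lower. That setting called 157 of all 12377 genes lower. The medians of both lists were negative in all 25 alternative fits.

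Energy and lipid genes were also lower in the median and uncalled. The median of 24 respiratory chain genes was -0.44 on all arrays and -0.42 without the 2, but 0.20 without 20 weeks replicate 1 alone and 0.10 with the spread of each array in the fit. Uqcrfs1, the Rieske protein of complex III, differed by -0.94 ± 0.34, Sdha, of complex II, by -0.73 ± 0.30, and Cox5a, of cytochrome c oxidase, by -0.92 ± 0.38, or -0.47 ± 0.25 without the 2 arrays. Fatty acid oxidation (14 genes) had a median of -0.62 and -0.65, and fatty acid synthesis (12 genes) of -0.83 and -0.61. Acadvl, the first dehydrogenase for very long chains, differed by -1.43 ± 0.43 (limma adjusted p = 0.442; it passed with array weights), Acaa2, a thiolase, by -1.17 ± 0.47, and Cpt2, of the carnitine shuttle, by -0.42 ± 0.17. Scd1, the main stearoyl-CoA desaturase, measured 7.66, 11.15, 10.98, 10.53 and 10.72 at 20 weeks and 12.31, 12.62, 11.46, 11.18 and 11.72 at 16 weeks, with no overlap (-1.65 ± 0.48, adjusted p = 0.414). Scd2 and malic enzyme, Me1, differed by -0.96 ± 0.40 and -0.78 ± 0.33.

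Fat markers differed between the arrays beside these lists. Fabp4, the fatty acid binding protein of adipocytes, measured 4.35, 5.04, 6.66, 6.52 and 5.52 at 20 weeks and 11.63, 11.64, 6.72, 5.82 and 5.67 at 16 weeks. Adiponectin, Adipoq, and carbonic anhydrase 3, Car3, were likewise high on 16 weeks replicates 1 and 2, at 7.57 and 8.32 for Adipoq and 10.69 and 11.72 for Car3, and the lipid droplet gene Cidec was at 4.04 and 4.36 there. Of 12 adipose markers 6 were kept, with a median of -1.03 on all arrays and -1.33 without the 2, and none called. With the adipose mean in the fit, the median became -0.25 for fatty acid oxidation, -0.27 for fatty acid synthesis and -0.05 for the respiratory chain.

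**Figure D5:**
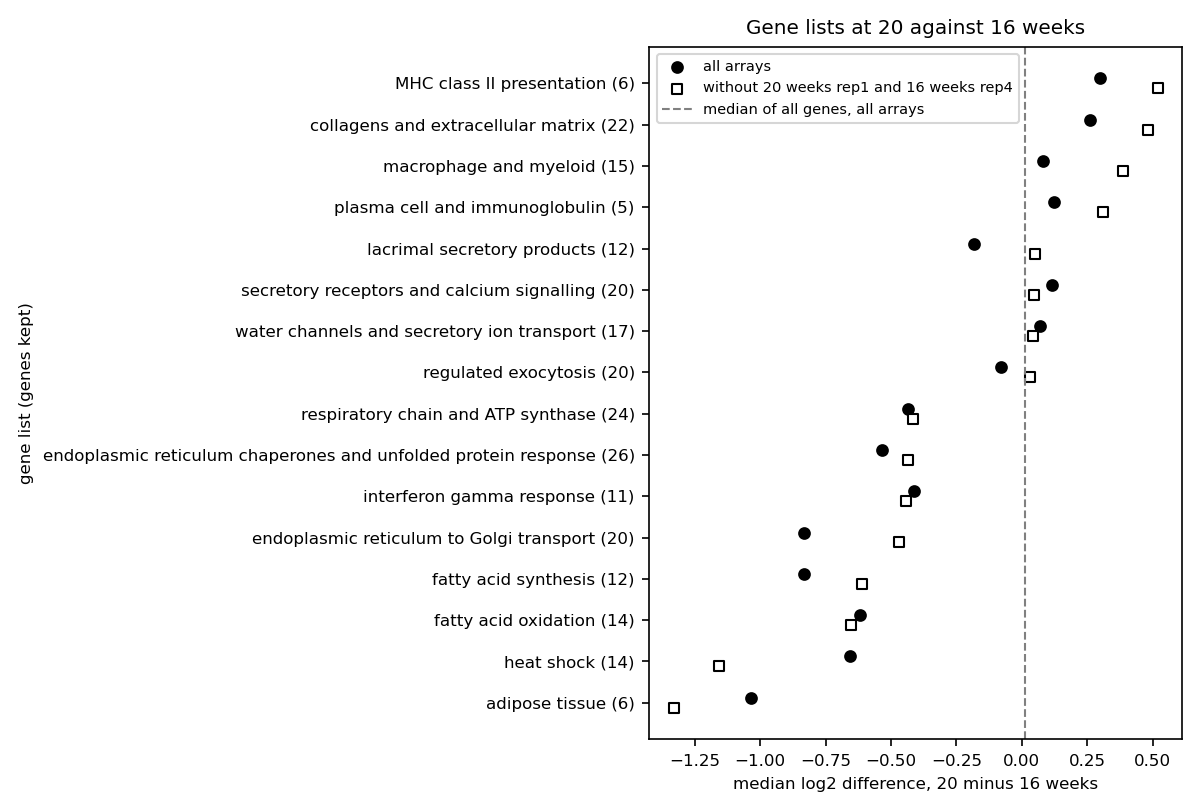
Median log2 difference, 20 minus 16 weeks, over the kept genes of 16 lists (number of genes in brackets) on all arrays (filled circles) and without the 2 arrays of low spread (open squares), with the median of all genes, 0.01, dashed. Adipose tissue, heat shock and the fatty acid lists lie lowest, at -1.33 to -0.61 without the 2 arrays.

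Leukocyte genes kept by the filter did not pass on all arrays or without the 2. Few lymphocyte markers were kept. Of the genes with a probe set, these were 5 of 11 for T cells, 2 of 9 for B cells and 2 of 10 for cytotoxic and NK cells. Of those kept, 4, 1 and 2 were near background at both ages. A change in lymphocytes could therefore be missed here. Over 15 kept macrophage genes the median was 0.08 on all arrays and 0.39 without the 2, with array means of 4.83 to 7.07 at 20 weeks and 5.80 to 6.74 at 16 weeks. Adgre1, an adhesion receptor of macrophages, Aif1 and the scavenger receptor Marco differed by 0.73 ± 0.43, 0.37 ± 0.23 and 0.38 ± 0.27, with Marco near background at both ages and Adgre1 at 0.36 without the 2 arrays. The class II genes H2-Ab1, H2-Aa and Cd74, which present antigen to helper T cells, differed by 0.58 ± 0.50, 0.52 ± 0.64 and 0.55 ± 0.83. The median of that list of 6 was 0.30 on all arrays and 0.52 without the 2, but -0.22 without 16 weeks replicate 4 alone. Ctss, cathepsin S, which trims the class II chaperone, averaged 9.96 ± 1.44 at 20 weeks and 9.99 ± 0.94 at 16 weeks (SD, n = 5 each), a difference of -0.03 on all arrays and 0.19 without the 2. Ighm, the IgM heavy chain, measured 4.78, 4.07, 7.85, 5.40 and 6.82 at 20 weeks and 4.22, 3.63, 3.63, 3.51 and 4.58 at 16 weeks. Only replicate 2 at 20 weeks lay within the range at 16 weeks, and the difference was 1.87 ± 0.49 (limma adjusted p = 0.329). The mean at 16 weeks was near background, so the difference may be understated, which was not tested. Ighm passed in 1 of 25 alternative fits, quantile normalization (adjusted p 0.0414 to 0.817 over all). Igha, the IgA heavy chain, averaged 11.36 ± 1.38 at 20 weeks and 10.95 ± 1.24 at 16 weeks.

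Interferon gamma response genes had a median of -0.41 over 11 kept genes on all arrays and -0.44 without the 2. The median was 0.11 without 16 weeks replicate 2 and 0.08 with the adipose mean in the fit. Cxcl9, a chemokine for T cells, was at 3.12 to 4.08 at 20 weeks and, at 16 weeks, at 6.10 and 6.05 on replicates 2 and 4 and 3.15 to 3.17 on the others (-0.87 ± 0.53, and -0.50 without the 2 arrays). The GTPase genes Iigp1 and Irgm1 differed by 0.40 ± 0.18 and -0.56 ± 0.29. Of the candidates in the NOD regions and related immune genes, Il2, Ctla4 and Slc11a1 were near background at both ages, with intervals of -0.10 to 0.29, -0.10 to 0.18 and -0.18 to 0.20 on all arrays and -0.18 to 0.17, -0.15 to 0.14 and -0.24 to 0.19 without the 2, and Il21 and Icos were below the filter. The autoantigen gene Trim21, the B cell chemokine gene Cxcl13 and the B cell survival factor gene Tnfsf13b differed by 0.04 ± 0.23, 0.05 ± 0.17 and 0.05 ± 0.09 on all arrays and by 0.10, -0.03 and 0.01 without the 2. Of these, Trim21 and Tnfsf13b were near background at both ages.

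Matrix genes had mostly positive differences, with no call on all arrays or without the 2. Of 22 kept genes for collagens and other matrix proteins 16 had a positive difference, with a median of 0.26 on all arrays and 0.48 without the 2, and the median was positive in all 25 alternative fits. Among those fits Col1a2 passed with quantile normalization, Col1a2, Col4a1 and Dcn with array weights, and Dcn without 20 weeks replicate 1. In that order the settings called 13, 92 and 10 of all genes higher. The groups of all 22 matrix genes overlapped on all arrays, and those of 6 did not without the 2, all higher. Of all genes, 0.331% and 1.45% were higher with no overlap. Col1a2, a chain of type I collagen, measured 5.32, 6.63, 6.73, 7.97 and 7.27 at 20 weeks and 6.22, 6.01, 5.05, 5.64 and 5.79 at 16 weeks. Without the 2 arrays every array at 20 weeks was higher, by 1.38 ± 0.33 (limma adjusted p = 0.147), against 1.04 ± 0.36 with them (adjusted p = 0.515). Col1a1, its partner chain, differed by 0.52 ± 0.21, Col4a1, of basement membrane, by 1.25 ± 0.60, and periostin, Postn, by -0.99 ± 0.42, or -0.58 without the 2 arrays. Decorin, Dcn, which binds collagen fibrils and was chosen after its values were seen, measured 3.50, 8.71, 9.13, 9.83 and 9.86 at 20 weeks and 7.64, 8.27, 7.24, 6.80 and 8.00 at 16 weeks. The difference was 1.59 ± 0.33 without the 2 arrays (adjusted p = 0.0707) and 0.61 ± 0.77 with them (adjusted p = 0.771).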

How the data were processed

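Total RNA of lacrimal glands was labelled as biotinylated cRNA and hybridised to Affymetrix mouse arrays, per the labels' protocols. The authors deposited log2 values for 45101 probe sets on 26 arrays; RMA and GCRMA are named in the submitters' processing notes with no version or role, and they were used as deposited. The platform annotation gave 1 symbol for 34958 probe sets, several for 932 and none listed for 9211. Each of 18194 genes was represented by its brightest probe set of 1 symbol, and 12377 genes above the array median on at least 4 arrays were kept. limma 3.58.1 in R 4.3.3 (lmFit, eBayes) fitted a mean per age over all 26 arrays, so that the ages share 1 estimate of spread; tests were two-sided with Benjamini-Hochberg adjustment over the genes kept. The number of arrays limits precision. On data simulated for this comparison 46.3% of genes changed 2-fold were found on all arrays and 64.2% without the 2 arrays of low spread, with 9 and 4 false calls. The simulated noise had 1 spread per gene on every array, with no array of low spread and no error shared between genes. Many genes were planted as changed, which eases the adjusted threshold. The share found in the real data may therefore be lower and was not measured.

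The genes named were the 10 highest and 10 lowest called, filled up by p from genes whose groups do not overlap, the same with 5 each way without the 2 arrays, up to 4 of smallest p in each list described, and 18 genes of the study's question. Members, lists and settings were chosen with earlier results of these data known. Of 50 lists with 794 genes, 717 genes had a probe set and 583 were kept. Of the lists, 16 are described, chosen after their values were seen. For the lymphocyte, salivary gland and Harderian gland lists only counts or array means are given. Alternatives covered normalization, array weights, filters, probe sets, covariates, variance model, a replicate block and leaving out arrays. Covariates for fat and RNA integrity were added after seeing the data.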

Additional observations from a re-analysis of the deposited data

Results flagged for a closer look

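In each group of 5 arrays, an array was singled out where its gap to the nearest other array was over 0.71 of the group's range. Of 74 groups looked at, 18 had such an array, of which 10 were on 20 weeks replicate 1 and 4 on 16 weeks replicate 4. This count cannot be set against chance. The groups share the same arrays, several genes were called only without those 2 arrays, and their low spread was known beforehand. The spread of 20 weeks replicate 1 was 1.36 against 1.93 or more on the others, its heat shock mean was 5.36 against 7.27 or more, and its class II mean was 5.82 against 8.51 or more. On that array Rnf216 was at 3.91, Hsph1 at 3.75, Azin1 at 4.99, Cmtm8 at 2.89, Mrpl45 at 3.54, Cycs at 9.28 and Arpc2 at 7.59, each the lowest of its age. On 16 weeks replicate 4, Arpc2 was at 4.59, Nrg4 at 2.95, Med16 at 2.93 and 4930573C08Rik at 2.84, again the lowest. On 16 weeks replicate 3, Rnf216 was at 4.39 and Ahsa2 at 7.29, the highest of their age. Ahsa2 was highest on 20 weeks replicate 5, at 4.31, and Yeats2 lowest on 16 weeks replicate 2, at 3.24.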

How the results depend on the processing

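With 5 arrays per age and 2 of low spread, the number of called genes depended on the setting, and the cause was not tested except where fewer arrays or genes entered. On all arrays 2 genes passed, 1 higher and 1 lower. Without both arrays of low spread there were 10, 7 higher and 3 lower. Array weights gave 249, 92 higher and 157 lower, with a weight of 0.088 for 20 weeks replicate 1, 0.221 for 16 weeks replicate 4 and 10.9 for 4 weeks replicate 2, and limma warned that their estimate stopped before it converged. Quantile normalization gave 46 (13 and 33) and the spread of each array as a covariate 46 (14 and 32), so the share of higher calls was 28.3% and 30.4% there, against 50% on all arrays and 70% without the 2. In these 3 settings 25 genes passed in each, 5 higher and 20 lower. Only the 10 arrays of the ages compared gave 3 (0 and 3), none of them Rnf216 or Thap1, and those arrays without both of low spread gave 2 (1 and 1), against 10 when the other ages share the estimate of spread. Leaving out probe sets ending in _x_at or _s_at gave 3 (1 and 2). Centring gave 1 (0 and 1), as did the adipose mean and the actin signal as covariates, both added after the data were seen. The stricter filter, averaging all probe sets per gene, eBayes with trend and robust, and a threshold of 2-fold gave 1 (1 and 0). Leaving out each array in turn gave 0 to 12 genes, 0 to 10 higher and 0 to 4 lower, with 12 without 20 weeks replicate 1 and 0 without 16 weeks replicate 2, 3 or 5 or 20 weeks replicate 2 or 4. With the replicate block 0 genes passed (0 and 0; 946 at an unadjusted p under 0.05). Deviations of same-numbered arrays from their age means correlated at -0.14, 0.26, 0.19, -0.24 and 0.10 for numbers 1 to 5. No array at 20 weeks correlated best with its own number. Both arrays of low spread entered these correlations, which cannot show if same-numbered samples shared a batch. The count of genes whose step differed from that between 8 and 12 weeks, 0 on all arrays, was 1 without both arrays, 2 with quantile normalization, 2 with the spread covariate, 65 with weights and 0 to 3 when each array was left out. The heat shock median was -1.72 without 16 weeks replicate 4, and -1.72 to -0.44 over arrays left out. Of 98 named genes, 19 changed sign in 71 of 2428 values, none of them past the threshold. Without both arrays, over all ages or only those compared, the other sign was found for Aqp5 at -0.0718, Slc12a2 at 0.0289, Ltf at 0.28, Ctss at 0.19, Il2 at -0.00482, Ctla4 at -0.00674, Slc11a1 at -0.0209 and Cxcl13 at -0.0295. With quantile normalization the other sign was found for Ltf at 0.0675, Ctss at 0.30, Ctla4 at -0.00359 and Slc11a1 at -0.0339. With centring the other sign was found for Ctla4 at -0.00392, Slc11a1 at -0.035, Trim21 at -0.00413 and Tnfsf13b at -0.000902. With the spread covariate the other sign was found for Ctss at 0.39. With array weights the other sign was found for Aqp5 at -0.11, Aqp4 at -0.27, Ltf at 0.12, Ctss at 0.31, Tnfsf13b at -0.0781 and Igha at -0.21. With averaged probe sets the other sign was found for Slc12a2 at 0.42, Rab3d at -0.28 and Tnfsf13b at -0.11. Without the probe sets ending in _x_at or _s_at the other sign was found for Clu at -0.22. With the adipose mean the other sign was found for Ctss at 0.34, Adipoq at 0.22 and Car3 at 0.35. With the actin signal the other sign was found for Rab3d at -0.29, Slc11a1 at -0.00349, Trim21 at -0.00771 and Cd74 at -0.0528. When each array was left out, Aqp5 ran between -0.60 and 1.11, Aqp4 ran between -0.0633 and 0.29, Slc12a2 ran between -0.78 and 0.0592, Ltf ran between -0.49 and 0.20 and Ctss ran between -0.43 and 0.58. Likewise Rab3d ran between -0.28 and 0.80, Il2 ran between -0.0029 and 0.14, Ctla4 ran between -0.00669 and 0.0792, Slc11a1 ran between -0.0148 and 0.0385 and Trim21 ran between -0.0724 and 0.24. Further, Cxcl13 ran between -0.0027 and 0.13, Tnfsf13b ran between -0.0218 and 0.10, Obp1a ran between -0.28 and 2.13, H2-Aa ran between -0.0687 and 1.33 and Cd74 ran between -0.37 and 1.42. Igha ran between -0.12 and 0.84.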
